A study of Mus musculus with 4 samples.

Results

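The ligands Slit2, Slit3, Sema3a and Ntn4 and the receptors Robo1, Robo2, Plxna2 and Unc5c, genes of cell and axon guidance, were followed across the cell classes and treatments of the mouse ovary. They are 8 of the 32285 genes counted in the files and were found by symbol. The set was chosen by the levels of Robo2 and Plxna2, which differed between treatment libraries in granulosa cells, so their treatment values there are a description and carry no test. Single-cell libraries of 3′ transcript ends were made from 4 groups of mice, with 1 library per group. Prepubertal mice of postnatal day 25 were the animals. The control group received PBS/saline. Doxorubicin, an anthracycline drug that damages DNA, was dosed at 3 mg/kg in the doxorubicin group and in the group co-treated with AMH (doxorubicin+AMH). Recombinant human AMH was dosed at 0.75 mg/kg in that co-treated group and in the AMH group, which had no doxorubicin. Doxorubicin was given as 2 weekly doses, the later one 4 hours before the ovaries were collected. Each library pooled 1 ovary from each of 5 animals. Variation from animal to animal therefore has no measure here, and every ratio below compares libraries, not treatments. The strain and the route of dosing are not given in the sources used here.

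Slits are secreted proteins that bind Robo receptors, class 3 semaphorins act through neuropilin and plexin receptors, and netrins through Unc5 and Dcc-family receptors. The 3 systems were first described in growing axons and also act on cell migration, adhesion and vessel growth. In the ovary, Slit and Robo genes are known from the surface epithelium, the stroma and the granulosa cells of follicles, and AMH (anti-Müllerian hormone) is a granulosa product that signals through receptors acting on SMAD transcription factors.

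Levels are given as CPM, the UMIs of a gene per 1000000 UMIs summed over the cells of a class in 1 library, where a UMI tags 1 captured transcript. Intervals are 95%, exact Poisson for CPM, exact conditional binomial for ratios and exact Clopper-Pearson for shares of cells, and they cover counting error only. A gene was read as past the size rule when its ratio was at least 1.5-fold in either direction and its mean was at least 20 CPM over the 4 libraries.

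The libraries held 7141 to 9478 cells with median depths of 9834.5 to 13575 UMIs, and 6078 to 7998 cells were kept after filtering. The granulosa-like class carried its defining genes in each library. Here and below, 4 values in a row are those of the control, the doxorubicin, the doxorubicin+AMH and the AMH library. Of its 8 markers, Fshr (the FSH receptor; 144, 135, 118 and 103 CPM), Nr5a2 (645, 483, 471 and 434 CPM), Gatm (63.6, 62.7, 43.7 and 59.96 CPM) and Amh (138, 199.6, 69.8 and 43.7 CPM) were lower in both libraries with AMH. Inha (2233, 2215, 3471 and 2823 CPM), Inhba (479, 577, 1012 and 891 CPM) and Hsd17b1 (313, 375, 673 and 510.04 CPM) were higher in both, and Serpine2 (902 to 1061 CPM) was neither. Any pair of libraries shared 11 to 24 cell barcodes. Of 32 clusters, 28 were named in 11 classes from marker genes, each name being written with "-like". Libraries did not fill the clusters evenly. A granulosa-like cluster of 83 cells and an unnamed cluster of 183 cells were made up almost wholly of doxorubicin cells (79 and 178), the smooth muscle-like cluster led by Des held 203 cells of the control, 22 of the doxorubicin, 58 of the doxorubicin+AMH and 187 of the AMH library, and oviduct-type epithelial-like cells numbered 146, 1, 44 and 250 in the same order. The theca-like cells of the control and doxorubicin libraries lay mostly in a Cyp17a1-led cluster (700 and 492 cells), and those of the doxorubicin+AMH and AMH libraries mostly in a Lhcgr- and Prss35-led cluster (568 and 747).

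On GRCm38 in the GENCODE annotation, Robo1 (chromosome 16, 72308306 to 73046095, plus strand) and Robo2 (chromosome 16, 73891839 to 74411825, minus strand) lie on one chromosome, as do Slit2 (chromosome 5, 47983138 to 48307733, plus) and Sema3a (chromosome 5, 13125414 to 13602565, plus). Slit3 lies on chromosome 11 (35121224 to 35708507, plus), Unc5c on chromosome 3 (141465216 to 141834924, plus), Ntn4 on chromosome 10 (93640681 to 93747207, plus) and Plxna2 on chromosome 1 (194618218 to 194816869, plus). The genes span 107 to 738 kb, so values may move with whether intronic reads were counted, which was not tested.

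The upstream sequences of both receptors that chose the set are shown because both genes were higher in the AMH libraries and AMH signals through SMAD proteins. They are RefSeq sequences on GRCm38.p6 of the 250 bases before an annotated transcript start, printed 5′ to 3′ on the gene's strand, with GGCGCC, a motif of SMAD proteins of the BMP branch, in capitals. The Robo2 window, chr16:74411826-74412075 on the minus strand, is 1 of 3 RefSeq windows of the gene, adjoins the GENCODE gene start, and held 0 GGCGCC and 0 matches of CAGAC (or its reverse complement GTCTG), a general SMAD motif. Of the Robo2 windows not printed, chr16:75092771-75093020 held 0 GGCGCC and 1 CAGAC match, and chr16:75447294-75447543 held 0 of each. The Plxna2 window, chr1:194619579-194619828 on the plus strand, lies inside the GENCODE gene and held 1 GGCGCC and 2 CAGAC matches.
Robo2: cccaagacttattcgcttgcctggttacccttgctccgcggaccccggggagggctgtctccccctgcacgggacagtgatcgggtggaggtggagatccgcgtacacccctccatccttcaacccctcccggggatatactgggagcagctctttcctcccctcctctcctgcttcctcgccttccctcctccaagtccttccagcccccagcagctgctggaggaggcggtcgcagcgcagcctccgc
Plxna2: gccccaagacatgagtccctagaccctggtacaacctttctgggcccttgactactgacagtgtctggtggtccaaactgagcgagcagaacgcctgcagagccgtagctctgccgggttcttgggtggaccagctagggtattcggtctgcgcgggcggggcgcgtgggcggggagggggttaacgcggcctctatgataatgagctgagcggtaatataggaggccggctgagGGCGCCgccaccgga
Of 32851 windows of the same length, 9.59% held GGCGCC and 42.2% held CAGAC on either strand. A match is a description of letters, and nothing is drawn from its presence or absence.

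Each receptor and ligand had its own set of cell classes. Over the 4 libraries, Robo1 was highest in granulosa-like cells (193 to 252 CPM), then theca-like (164 to 209), stroma-like (124 to 136) and mural smooth muscle-like cells (75.2 to 82.5). The granulosa-like and theca-like ranges overlapped, while stroma-like and smooth muscle-like cells lay apart from them and from each other. Robo2 was highest in stroma-like cells (359 to 454 CPM), followed by blood endothelial-like (249 to 293), smooth muscle-like (199 to 345), granulosa-like (93.1 to 309) and theca-like cells (105 to 211), and each of these last 4 ranges overlapped its neighbour. The blood endothelial-like cells also held 9 smooth muscle markers at a summed 682 to 1738 CPM and 7 stroma markers at 167 to 907 CPM, and their part in the Robo2 level was not tested. Plxna2, a receptor of class 3 and class 6 semaphorins, was highest in lymphatic (142 to 199 CPM) and blood endothelial-like cells (142 to 169), whose ranges overlapped. Unc5c, a netrin receptor, was highest in granulosa-like cells (68.5 to 89.5 CPM), above stroma-like cells (22.8 to 47.5).

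The ligands lay mostly outside the follicle's granulosa cells. Slit2 was highest in surface epithelial-like cells, at 277, 284, 293 and 397 CPM. Slit3 was highest in stroma-like (342 to 475 CPM) and smooth muscle-like cells (247 to 422), with overlapping ranges. The smooth muscle-like cells also held the 7 stroma markers at a summed 2757 to 3103 CPM, and their part in the Slit3 and Robo2 levels there was not tested. Sema3a was highest in lymphatic endothelial-like cells, at 221, 136, 234 and 120 CPM from 40 to 78 cells, and at most 2.83 CPM in blood endothelial-like cells. Ntn4, a laminin-binding netrin of basement membranes, was highest in granulosa-like cells (72.2 to 116 CPM), where its range overlapped those of smooth muscle-like (61.8 to 79.2) and lymphatic endothelial-like cells (40.6 to 80.8). In granulosa-like cells Slit2, Slit3 and Sema3a averaged under 20 CPM and were left out of the counts there.

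**Figure D1:**
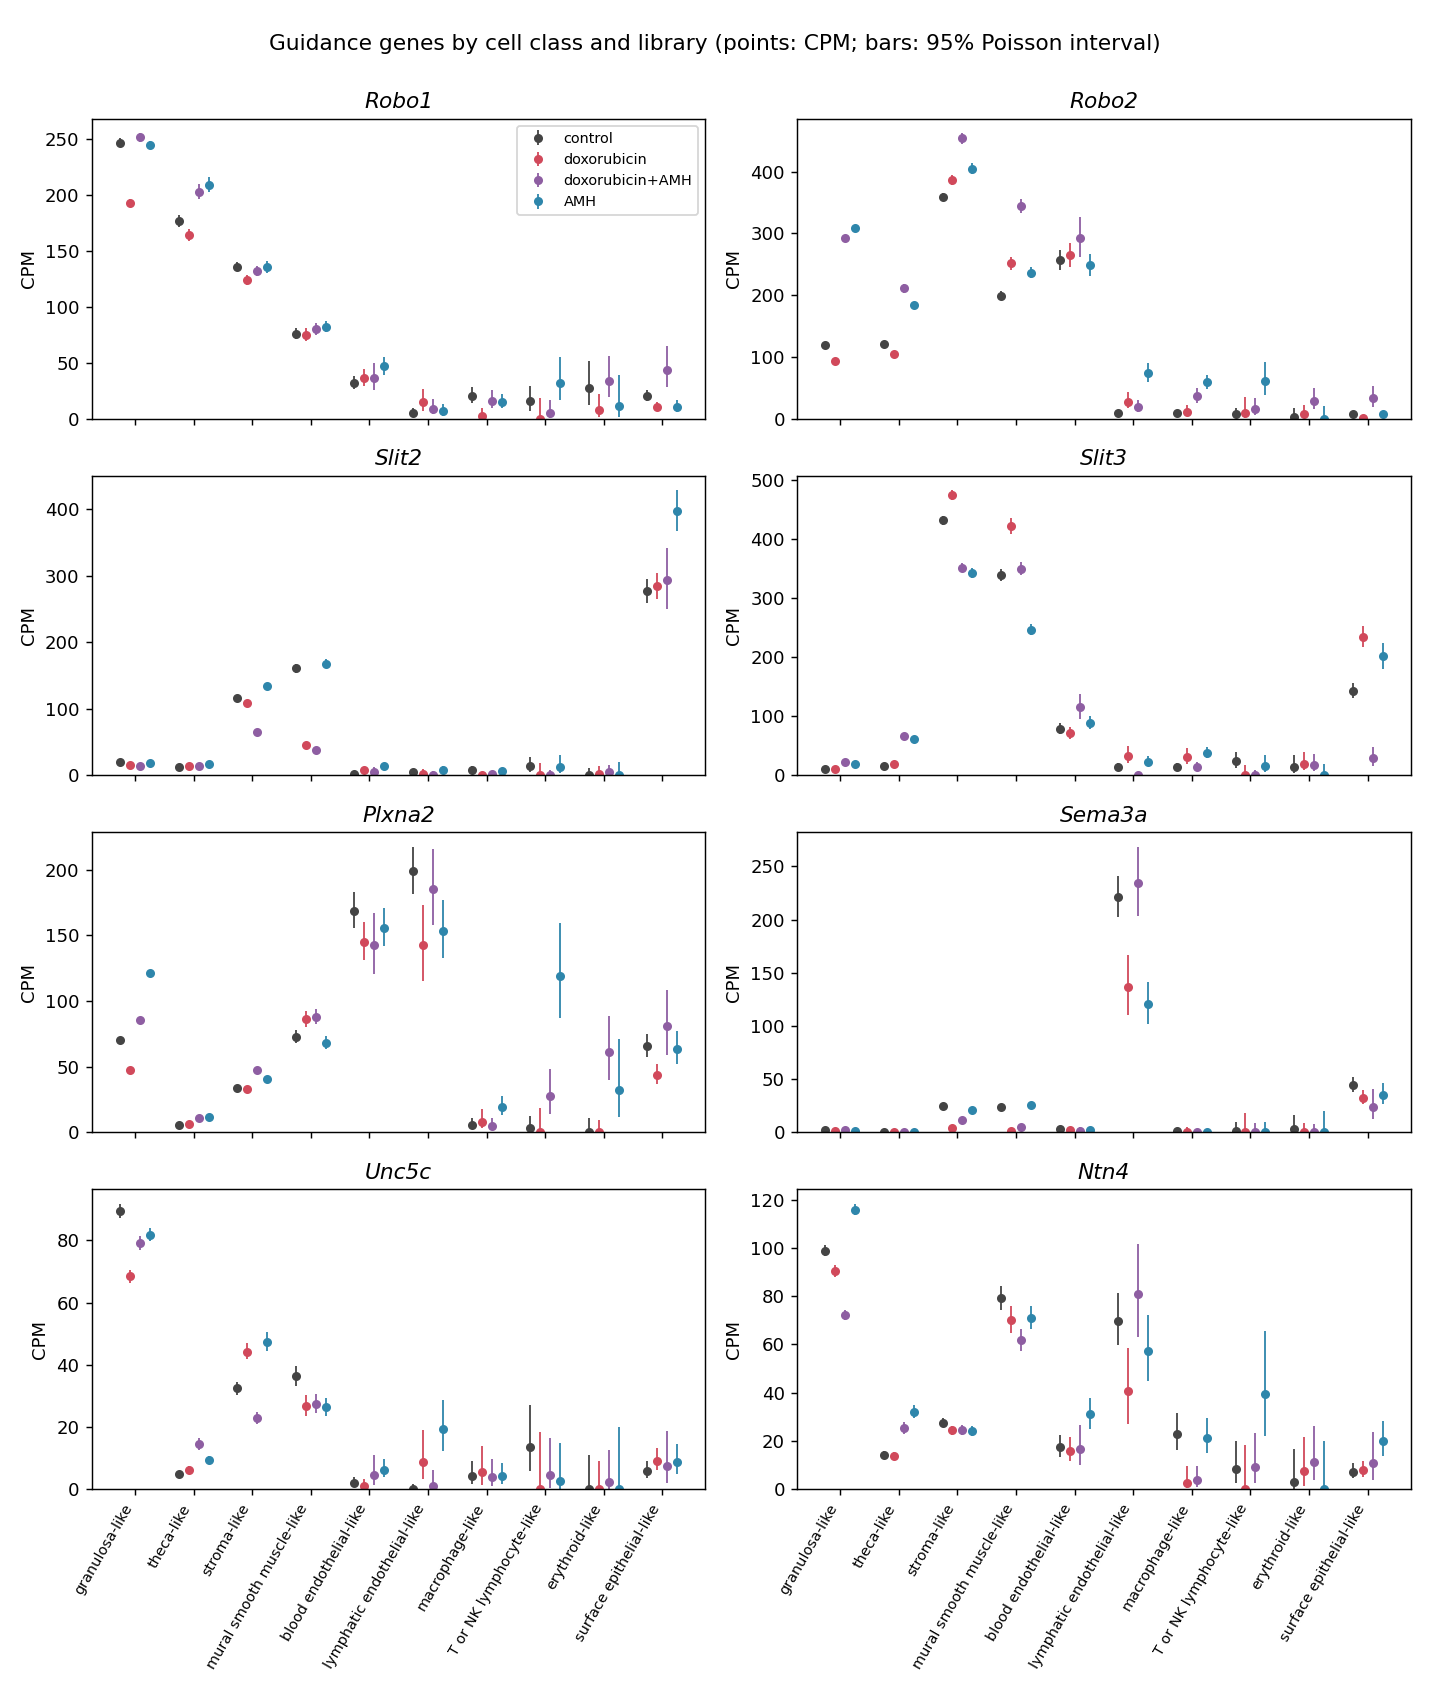
Level of the 8 genes (y axis, CPM, linear from 0) in 10 cell classes (x axis) in each of the 4 libraries (colours), with bars for the 95% Poisson interval. Robo1 falls from granulosa-like to smooth muscle-like cells, Slit3 is high in stroma-like and smooth muscle-like cells, and Sema3a is high in lymphatic endothelial-like cells; the granulosa-like Robo2 points of the AMH and doxorubicin+AMH libraries lie above the others.

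Robo2, a Slit receptor, was the member with the highest AMH ratios in granulosa-like cells at the libraries' own cluster mix. Its level was 120 CPM in control (interval 117 to 122), 93.1 in doxorubicin (90.6 to 95.6), 293 in doxorubicin+AMH (289 to 298) and 309 in AMH (305 to 313), from 5544 to 23226 UMIs. Both libraries with AMH lay above both without it. The ratio was 2.59 for AMH over control (2.52 to 2.65) and 3.15 for doxorubicin+AMH over doxorubicin (3.06 to 3.25), which share no library. The ratios for doxorubicin were nearer to 1, at 0.778 over control (0.752 to 0.805) and 0.95 for doxorubicin+AMH over AMH (0.93 to 0.97).

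Per cell, 46.5%, 44.1%, 66.8% and 64.5% of granulosa-like cells had a Robo2 UMI. With every cell thinned to 2000 UMIs the shares were 16.2% (14.6 to 17.8), 14.3% (12.7 to 15.96), 31.96% (30.01 to 33.96) and 32.4% (30.7 to 34.2), leaving out 32, 30, 52 and 96 shallower cells. Erythroid-like cells, which should lack the gene, gave thinned shares of 0 to 1.85% over 31 to 59 cells and unthinned shares of 0 to 5.08%, at median depths of 3928 to 6553 UMIs against 17631 to 24438.5 in granulosa-like cells. The granulosa-like shares lay above those erythroid-like shares in all 4 libraries and were higher in both libraries with AMH. Other blood cells were not read as a background: Robo2 was 8.67, 10.8, 35.9 and 58.6 CPM in macrophage-like cells and 6.86 to 60.8 CPM in T or NK lymphocyte-like cells.

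The difference was present in each of the 6 granulosa-like clusters with at least 20 cells in each library. In the cluster led by Inhba, Inhbb and Top2a, of activin subunits and a cycling gene, it was 140, 75.4, 312 and 382 CPM, and in the Slc18a2- and Amh-led cluster, where it was lowest, 18.6, 18.1, 74.5 and 68.0 CPM. The AMH over control ratio ran from 1.65 (1.55 to 1.77) in the Kcnq5-led cluster to 3.65 (3.09 to 4.32) in the Slc18a2-led cluster. The ratio of doxorubicin+AMH over doxorubicin ran from 1.38 (1.27 to 1.49) in the Kcnq5-led cluster to 4.14 (3.89 to 4.41) in the Top2a cluster. The cluster mix differed between libraries, and with the same cluster mix in every library the class ratios were 2.10 and 2.25 in place of 2.59 and 3.15. With that mix both AMH ratios of Plxna2 lay above those of Robo2.

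The highest Plxna2 ratios of both AMH contrasts lay in 1 granulosa-like cluster. In the whole class it was 70.1 CPM in control (68.1 to 72.2), 47.1 in doxorubicin (45.4 to 48.9), 85.2 in doxorubicin+AMH (83.0 to 87.5) and 121 in AMH (119 to 124). The libraries were thus in the order doxorubicin, control, doxorubicin+AMH, AMH. Its ratios were 1.73 for AMH over control (1.67 to 1.79), 1.81 for doxorubicin+AMH over doxorubicin (1.73 to 1.89), 0.672 for doxorubicin over control (0.641 to 0.705) and 0.70 for doxorubicin+AMH over AMH (0.68 to 0.73). The latter 2 stayed inside 1.5-fold.

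In the granulosa-like cluster led by Cntn4, Slc18a2, Cdh12 and Amh, Plxna2 was 168, 83.2, 534 and 828 CPM, from 331, 289, 154 and 220 cells. The ratios there were 4.92 for AMH over control (4.67 to 5.18), 6.42 for doxorubicin+AMH over doxorubicin (5.95 to 6.94), 0.494 for doxorubicin over control (0.456 to 0.535) and 0.65 for doxorubicin+AMH over AMH (0.61 to 0.68). Over all genes tested in that cluster, 4.66% were at least 1.5-fold higher for AMH over control (7.01% lower) and 4.15% for doxorubicin+AMH over doxorubicin (6.39% lower). For doxorubicin over control 0.819% were lower (0.461% higher), and for doxorubicin+AMH over AMH 1.76% (1.43% higher). That cluster held 44.0%, 32.2%, 44.4% and 54.2% of the class's Plxna2 UMIs, against 18.3%, 18.3%, 7.08% and 7.94% of all its UMIs. Thinned to 2000 UMIs, 22.1%, 14.3%, 46.1% and 63.9% of its cells had a Plxna2 UMI (65.0%, 59.2%, 89.0% and 88.2% unthinned, median depths 19527.5 to 26921), against 0 to 3.23% of erythroid-like cells. In the whole class the unthinned shares, 43.0%, 38.5%, 37.1% and 41.4%, did not follow the CPM, and the thinned ones were 9.86%, 7.10%, 10.1% and 13.6%.

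Without that cluster the class ratios of Plxna2 were 1.25 for AMH over control and 1.31 for doxorubicin+AMH over doxorubicin, inside 1.5-fold, and those of Robo2 were 2.32 and 2.82. In the other 5 clusters the Plxna2 ratio of AMH over control ran from 0.97 (0.84 to 1.12) in the Fst-led cluster to 1.82 (1.49 to 2.24). That of doxorubicin+AMH over doxorubicin ran from 1.10 (0.94 to 1.30) in the Fst-led cluster to 1.69 (1.14 to 2.55) in the Spef2-led and 1.79 (1.63 to 1.95) in the Kcnq5-led cluster. Several leading genes of the Slc18a2 cluster were lower in both libraries with AMH: Slc18a2, a vesicular amine transporter, was 683, 590, 156 and 122 CPM, Kctd14 791, 829, 153 and 98.8 CPM, and Nr5a2, a nuclear receptor of steroid-producing cells, 584, 401, 183 and 183 CPM. Cdh12, another leading gene, was 192, 130.2, 151 and 226 CPM, with no such difference. Whether the cluster holds the same kind of cell in each library was not tested. Ntn4 in that cluster was 87.6, 90.1, 186 and 277 CPM, also higher in both libraries with AMH.

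**Figure D2:**
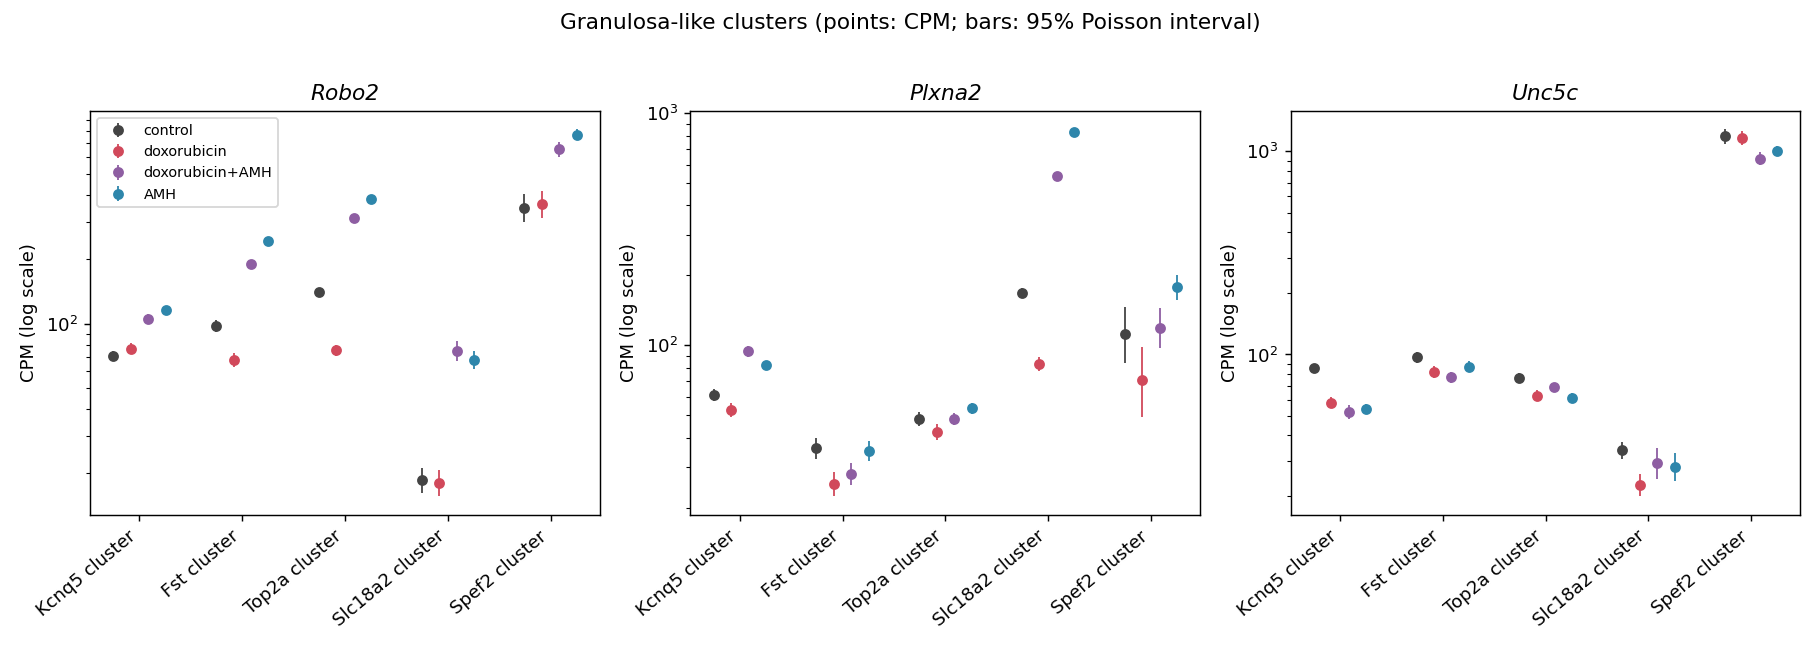
Level of Robo2, Plxna2 and Unc5c (y axis, CPM, log scale) in 5 granulosa-like clusters (x axis, named by a leading gene) in each library (colours), with bars for the 95% Poisson interval. Robo2 is higher in the AMH and doxorubicin+AMH libraries in each cluster shown, Plxna2 reaches 534 and 828 CPM in the Slc18a2 cluster of those libraries, and Unc5c is 923 to 1186 CPM in the Spef2 cluster alone.

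Unc5c had its highest level in a granulosa-like cluster of shallow cells, while most of its UMIs came from the other clusters. The Spef2-led cluster, with a median of 3094 UMIs, held 1186, 1167, 923 and 1010 CPM of Unc5c, against 22.8 to 146 CPM in the other 5 clusters. Unc5c is among that cluster's leading genes, although the guidance genes were left out of the clustering, so this level describes it and is no test. Of its 129, 129, 217 and 437 cells, 69.8%, 67.4%, 71.4% and 71.6% had a Unc5c UMI at median depths of 2848 to 3447 UMIs, against 0 to 1.35% of erythroid-like cells at 3928 to 6553. The cluster gave 10.0%, 14.1%, 15.6% and 24.0% of the class's Unc5c UMIs from 0.755%, 0.830%, 1.34% and 1.94% of its UMIs. Its cells had a median mitochondrial share of 7.69% and 45468 CPM of Malat1, a nuclear RNA, the highest of the granulosa-like clusters; their part in the level was not tested. Over the class, Unc5c was 89.5, 68.5, 79.1 and 81.8 CPM and its ratio of AMH over control 0.91 (0.88 to 0.95), which became 1.46 with each cell weighted equally and 0.782 without the Spef2-led cluster. Thinned to 2000 UMIs, 67.0%, 56.9%, 60.3% and 62.0% of the cluster's cells had a Unc5c UMI, against 0% of erythroid-like cells.

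Robo1 differed less. Among the 6 granulosa-like clusters it was lowest in the Slc18a2 cluster (94.8, 88.4, 57.5 and 64.1 CPM). Over the class it was 247, 193, 252 and 245 CPM in granulosa-like cells, lowest in the doxorubicin library, with ratios of 0.78 for doxorubicin over control (0.76 to 0.80), 1.03 for doxorubicin+AMH over AMH (1.01 to 1.05), 0.99 for AMH over control (0.97 to 1.01) and 1.30 for doxorubicin+AMH over doxorubicin (1.27 to 1.34). Ntn4 was 98.95, 90.4, 72.2 and 116 CPM, lowest in doxorubicin+AMH and 0.62 times the AMH library there (0.60 to 0.65). With the same cluster mix that ratio was 0.81, inside 1.5-fold. Of the class's Ntn4 UMIs, 55.8% to 69.1% came from the Kcnq5-led cluster, which held 20.02% of the class's UMIs in doxorubicin+AMH and 31.0% in AMH.

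Of the 5 members that passed the level filter in granulosa-like cells, 2 (Robo2 and Plxna2) were past 1.5-fold upward for AMH over control, where 0.8% of all 6621 genes tested were (2.1% were lower), and the same 2 for doxorubicin+AMH over doxorubicin, where 1.12% were (2.66% lower). Of all genes, 0.393% were past it upward in both and 1.37% downward in both. These contrasts chose the members, so nothing is read from the counts. For doxorubicin over control 0 members passed in either direction, beside 0.0906% of genes higher and 0.136% lower, and for doxorubicin+AMH over AMH 1 (Ntn4) was lower, beside 0.649% of genes lower and 0.287% higher. Slit3, left out by the level filter, was 11.4, 10.8, 23.5 and 19.3 CPM, higher in both libraries with AMH.

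**Figure D3:**
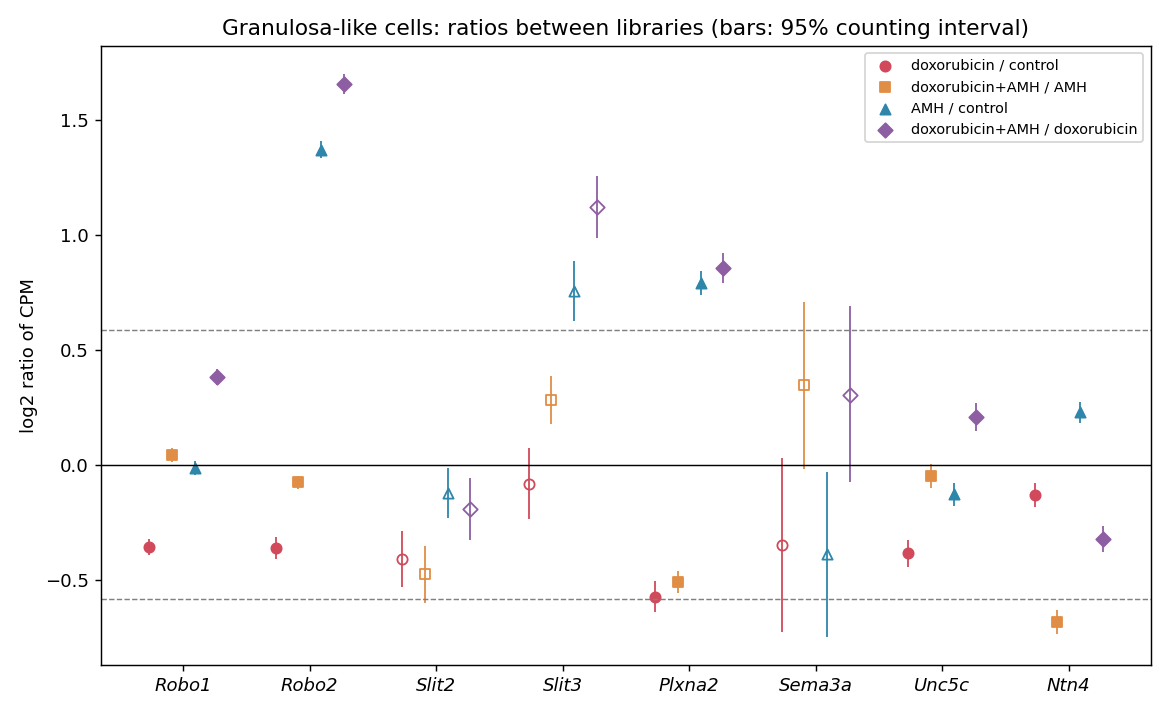
Log2 ratio of CPM (y axis) of the 8 genes (x axis) in granulosa-like cells for the 4 contrasts (colours and markers), with bars for the 95% counting interval and dashed lines at 1.5-fold. Open markers are the 3 genes under a mean of 20 CPM; Robo2 and Plxna2 lie above the upper line in both AMH contrasts, and Ntn4 below the lower one for doxorubicin+AMH over AMH.

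Other genes of the guidance families were read from 82 listed genes, of which 23 passed the filter in granulosa-like cells, members included. For AMH over control 2 were past 1.5-fold upward, both members, and 2 downward, beside 0.8% of all genes higher and 2.1% lower. The list median was 0.93 beside 0.96 over all genes. For doxorubicin+AMH over doxorubicin 2 were upward, both members, and 3 downward, beside 1.12% of all genes higher and 2.66% lower, with a median of 0.91 beside 0.98. Ntng1, a membrane-anchored netrin-G, was 91.5, 63.4, 28.9 and 32.6 CPM, lower in both libraries with AMH (ratios 0.36 and 0.46). Sema6a, a transmembrane semaphorin that binds Plxna2, was 59.4, 42.2, 17.5 and 34.0 CPM, also lower with AMH (0.57 and 0.41). The further gene was Srgap3, a Slit-Robo GTPase-activating protein, at a ratio of 0.63, named after its value was seen. For doxorubicin over control 0 of the 23 were past 1.5-fold, beside 0.0906% of all genes higher and 0.136% lower, with a median of 0.86 beside 0.98. For doxorubicin+AMH over AMH 3 were lower (Ntn4, Sema6a and, named after its value was seen, Srgap1). Of all genes 0.649% were lower there and 0.287% higher, and the list median was 0.90 beside 1.00. In the semaphorin, netrin and ephrin families the gene with the highest mean CPM over the 4 libraries was also read: Sema5a (824 to 1089 CPM), the netrin and repulsive guidance molecule receptor Neo1 (105 to 126 CPM) and Efna5 (137 to 225 CPM), an ephrin ligand. In stroma-like cells these were Sema5a (309 to 397 CPM), Neo1 (83.0 to 89.6 CPM) and the ephrin receptor Epha3 (55.3 to 61.5 CPM). That choice by 3′ counts is no comparison of levels between genes.

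In theca-like cells, the androgen-producing cells around follicles, 3 of the 4 members that passed the filter were past 1.5-fold upward in both AMH contrasts. Over all genes tested 6.83% were (9.57% were lower) for AMH over control and 6.34% (9.47% lower) for doxorubicin+AMH over doxorubicin. Slit3 was 16.5, 19.2, 67.2 and 61.6 CPM, Robo2 121, 105, 211 and 183 CPM, and Ntn4 14.3, 13.7, 25.3 and 32.2 CPM, each higher in both libraries with AMH. These libraries also differed in which theca-like cluster held their cells, Cyp17a1 was 1871, 1810, 311 and 138 CPM, and 7 stroma markers summed to 413, 465, 998 and 965 CPM. Also in these cells 5 Schwann cell markers summed to 4.89, 9.67, 64.6 and 79.1 CPM, and 8 granulosa markers to 500.5, 519, 311 and 343 CPM. The part of these markers in the member levels was not tested. With the same cluster mix in every library the Slit3 ratios changed from 3.73 and 3.51 to 1.33 and 0.78, those of Robo2 from 1.51 and 2.02 to 1.08 and 1.48, and those of Ntn4 from 2.26 and 1.85 to 1.70 and 0.63. The Ntn4 ratio of doxorubicin over control changed from 0.96 to 1.72. Some cluster values in that mix rest on few cells. The Lhcgr- and Prss35-led cluster had 37 control and 30 doxorubicin cells, and the Cyp17a1- and Cyp11a1-led cluster 69 doxorubicin+AMH and 71 AMH cells. Treatment and cluster mix cannot be told apart here.

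In stroma-like cells, the interstitial fibroblasts, both Slit receptors differed little: Robo2 was 359, 387, 454 and 405 CPM and Robo1 136, 124, 132 and 136 CPM. Slit3 was 431, 475, 351 and 342 CPM, lower in both libraries with AMH, at ratios of 0.79 (0.77 to 0.82) and 0.74 (0.72 to 0.76). In the same cells 8 granulosa markers summed to 249, 272, 412 and 459 CPM and 9 smooth muscle markers to 740.3, 679, 1093 and 941 CPM, both higher in both libraries with AMH, and their part in the Slit3 level was not tested. Of 7 members that passed the filter, Slit2 (117, 109, 64.9 and 134 CPM) and Unc5c (32.4, 44.2, 22.8 and 47.5 CPM) were past 1.5-fold downward in doxorubicin+AMH over AMH and over doxorubicin, where 0.635% and 1.36% of all genes were lower and 0.136% and 0.318% higher. Both genes were highest in the cluster led by Dpt and Clec3b, which had 303, 205, 135 and 267 cells. Without it the Unc5c ratios were 1.01 and 1.18 and the Slit2 ratios 0.74 and 1.09, so the call ended for both. Of 29 guidance genes that passed the filter in stroma-like cells, 0 were past 1.5-fold for doxorubicin over control, beside 0.408% of all genes higher and 0.151% lower. For AMH over control 1 was lower, beside 1.01% of all genes lower and 0.423% higher. It was Nrp1, a semaphorin co-receptor, at a ratio of 0.63 (0.60 to 0.65). For doxorubicin+AMH over AMH 2 were lower, both members, and over doxorubicin 3, the further one being the Unc5-binding protein gene Flrt2 at 0.63 (0.59 to 0.68). Nrp1 and Flrt2 are named after their values were seen. Within the class Slit3 was 536 to 816 CPM in the Mfap4-led cluster and 93.4 to 145 CPM in the Kcnk2-led one.

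The Dpt- and Clec3b-led cluster was also where stroma-like Sema3a lay. Sema3a was 193 CPM in control (718 UMIs), 28.6 in doxorubicin (93 UMIs), 169 in doxorubicin+AMH (253 UMIs) and 140 in AMH (426 UMIs), and at most 2.53 CPM in the other 4 stroma-like clusters. The doxorubicin library was the low one. The ratio was 0.149 for doxorubicin over control (0.118 to 0.185), 1.21 for doxorubicin+AMH over AMH (1.03 to 1.41), 5.91 for doxorubicin+AMH over doxorubicin (4.64 to 7.58) and 0.729 for AMH over control (0.645 to 0.822). In that cluster 10.6% of genes tested were at least 1.5-fold lower for doxorubicin over control (6.31% higher), and 10.8% higher for doxorubicin+AMH over doxorubicin (9.34% lower). Thinned shares of cells with a Sema3a UMI were 19.1% (14.9 to 24.03), 4.93% (2.39 to 8.87), 22.6% (15.8 to 30.6) and 14.3% (10.4 to 19.1), with 0% in erythroid-like cells (unthinned 38.0%, 19.0%, 34.1% and 36.3%, median depths 10719 to 15241).

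Other genes of that cluster differed in the same library. Cdkn1a, the p53 target p21, was 133, 1602, 293 and 160 CPM, and Pdgfra, a fibroblast receptor, 363, 136, 317 and 345 CPM. The leading genes Dpt (626 to 826 CPM), Clec3b (499 to 658 CPM) and Dcn (5646 to 7805 CPM) stayed within 1.5-fold between libraries. Other leading genes did not: C3 was 711, 931, 877 and 544 CPM, Igfbp3 487, 383, 564 and 620 CPM, and Col14a1 393, 326, 356 and 253 CPM. Slit2 (754, 695, 581 and 678 CPM) and Slit3 (847, 781, 599 and 569 CPM) were high there in all 4 libraries. Robo2 was 65.2, 24.6, 330 and 74.8 CPM, high in doxorubicin+AMH alone, where 5 of the 135 cells held 31.98% of its 494 UMIs and 28.6% of thinned cells had a UMI against 5.42% to 10.2% in the other libraries.

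**Figure D4:**
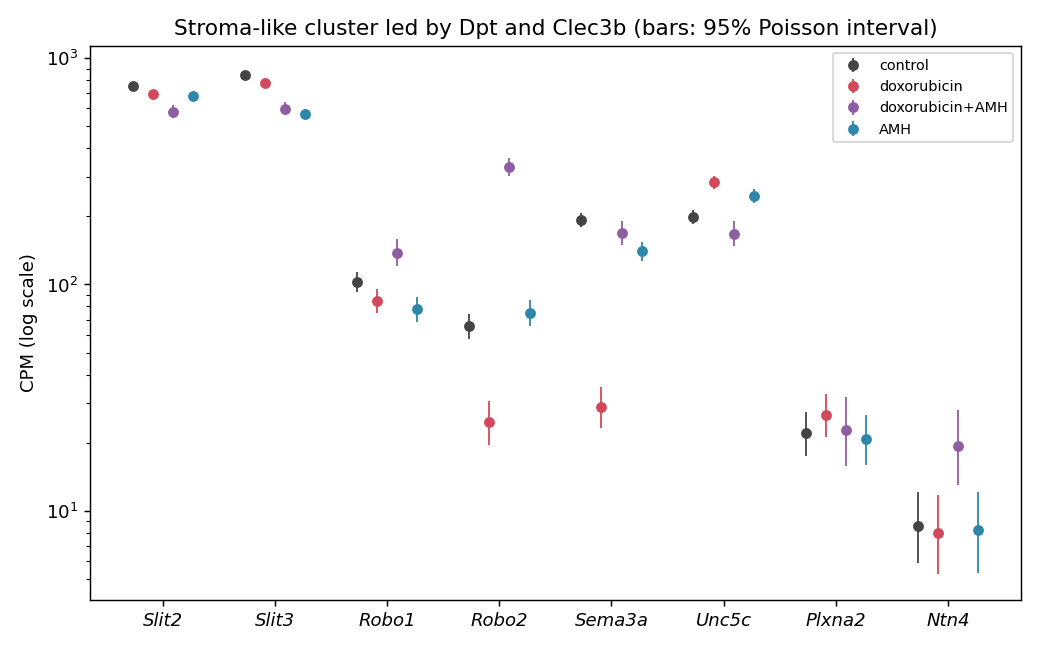
Level of the 8 genes (y axis, CPM, log scale) in the stroma-like cluster led by Dpt and Clec3b in each library (colours), with bars for the 95% Poisson interval. Sema3a is 28.6 CPM in the doxorubicin library and 140 to 193 CPM in the others, and Robo2 is 330 CPM in doxorubicin+AMH and 24.6 to 74.8 CPM in the others.

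In mural smooth muscle-like cells Slit2 was 161, 45.3, 39.0 and 168 CPM, lower in both libraries with doxorubicin, at ratios of 0.28 (0.25 to 0.31) and 0.23 (0.21 to 0.26). It was the 1 member of 7 past 1.5-fold downward in either doxorubicin contrast, where 1.61% and 1.44% of genes were lower and 0.333% and 0.591% higher. The Des-led cluster, in which Slit2 was 578, 445, 237 and 660 CPM, had only 22 and 58 cells in the doxorubicin and doxorubicin+AMH libraries, and without it the ratios were 0.73 and 0.68, inside 1.5-fold. Within the Des-led cluster they were 0.770 (0.643 to 0.915) and 0.359 (0.302 to 0.424). The libraries thus differed in the number of these cells and, for doxorubicin+AMH over AMH, by more than 1.5-fold in their Slit2 level. Slit3 was 339, 422, 350 and 247 CPM and Robo2 199, 252, 345 and 236 CPM, all ratios inside 1.5-fold. Sema3a averaged under 20 CPM, at 23.5, 1.44, 5.47 and 25.8 CPM, and in the Des-led cluster was 104, 34.95, 84.6 and 122 CPM.

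The genes whose levels over 24 class-by-library values were most like that of Robo2 were Fkbp7 (Pearson r 0.937 of log2 CPM plus 5), Fkbp9 (0.930), Airn (0.930), Rps20 (0.924) and Serpinh1 (0.918), among 7147 genes. Those most like Plxna2 were Rflnb (0.946), Asap2 (0.943), Ctif (0.936), Dcaf6 (0.935) and Cd200 (0.929). The 24 values share 4 libraries and their depths, and the likeness is a description.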

How the data were processed

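Single-cell RNA of 4 mouse ovary libraries was analysed from UMI counts per gene and barcode that the authors deposited unnormalized, and the file headers name Cell Ranger 7.0.0 as their source. The submitters' processing notes name mm10, R 4.2.0 and Seurat 4.1.0. Whether intronic reads were counted is not given in the sources used here. Barcodes under 1000 UMIs or over 20% mitochondrial UMIs were dropped, and the highest Scrublet scores were removed as doublets at 0.8% per 1000 cells (scanpy 1.11.5; 590, 328, 390 and 584 cells). Clustering used 2000 variable genes without the guidance and mitochondrial genes, 30 components, 20 neighbours and Leiden resolution 1 (leidenalg 0.10.2), with no batch correction. A cluster was named when at least 3 and 60% of a class's markers lay 1 log2 unit above the median cluster in at least 10% of its cells and 1 was among its top 10 genes, unless another class that met the rule had at least 2 there; these thresholds were set after values were seen, and other names could change the classes. Some results within clusters are not reported here.

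Counts were summed per class and library and scaled to CPM. Ratios use no pseudocount, and the method was tested on simulated data. Each group being 1 library, groups cannot be tested against each other and no p-value is given. Contrasts were made in the 6 classes that reached 50 cells in every library. Of the other guidance genes, those past 1.5-fold in granulosa-like or stroma-like cells in the same direction in both contrasts of a pair sharing no library were named, with the gene of highest mean CPM per family; likeness used the 5 highest correlations. The members and lists were chosen with earlier results of these data known. Differences between animals or dissociations were not measured. Gene extents are from GENCODE M21 and promoters from RefSeq (both GRCm38). By GENCODE, Gm20475 overlaps Slit2 and Gm12122 overlaps Slit3 on the same strand, and their reads may be shared; antisense genes overlap Slit2, Unc5c and Ntn4.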

Additional observations from a re-analysis of the deposited data

How the results depend on the processing

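No paired analysis was possible because each group is 1 library. The ratios of Robo2 and Plxna2 in granulosa-like cells kept their direction under each alternative run, and the cause of the changes below was not tested unless the alternative shows it. For Robo2 the ratios of AMH over control and doxorubicin+AMH over doxorubicin were 2.70 and 3.45 with doublets left in, 2.79 and 2.67 with each cell weighted equally, 2.10 and 2.25 with the same cluster mix, and 2.32 and 2.82 without the Slc18a2-led cluster. Median-of-ratios scaling gave 2.71 for the former and a pseudocount of 5 CPM 3.04 for the latter. The Robo2 ratios of doxorubicin over control and doxorubicin+AMH over AMH were 0.69 and 0.88 with doublets left in, 0.93 and 0.89 with cells weighted equally, and 0.84 and 0.90 with the same cluster mix.

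For Plxna2, AMH over control was 1.82 with doublets left in and with median-of-ratios scaling; AMH over control and doxorubicin+AMH over doxorubicin were 2.05 and 2.09 with cells weighted equally, 2.37 and 2.49 with the same cluster mix, and 1.25 and 1.31 without the Slc18a2-led cluster. A mitochondrial limit of 10% gave 1.72 for doxorubicin+AMH over doxorubicin and 0.71 for doxorubicin over control. Its ratios of doxorubicin over control and doxorubicin+AMH over AMH were 0.62 and 0.60 with doublets left in and 0.81 and 0.85 without the Slc18a2-led cluster, and the latter was 0.74 with the same mix. The count of members past the fold became 1 for doxorubicin over control and 2 for doxorubicin+AMH over AMH with doublets left in. For doxorubicin+AMH over AMH it became 0 with cells weighted equally, with the same mix and at a fold of 2. For both AMH contrasts it became 1 at a fold of 2 and without the Slc18a2-led cluster. The shares over all genes given above belong to the main run at 1.5-fold. None is given for these alternatives, so nothing is read from the changed counts. Alternatives that leave out the Slc18a2-, Clec3b-, Des- or Spef2-led cluster were chosen after seeing the data.

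Among ratios of other classes past 1.5-fold, the direction turned in 12 combinations of ratio and alternative; ratios inside 1.5-fold that crossed 1 are not counted. Other calls ended with no turn: theca-like Robo2 of AMH over control, 1.51 as reported, was 1.26 with cells weighted equally and 1.49 with doublets left in or a pseudocount, and stroma-like Slit2 and Unc5c of doxorubicin+AMH over doxorubicin were 0.745 and 0.687 with cells weighted equally. With the same cluster mix the latter 2 were 0.885 and 0.817, over AMH 0.823 and 0.854, and smooth muscle-like Slit2 was 0.756 for doxorubicin over control and, still past 1.5-fold, 0.442 for doxorubicin+AMH over AMH (0.232 as reported). Granulosa-like Ntn4 of doxorubicin+AMH over AMH was 0.767 with cells weighted equally. With the same mix, theca-like doxorubicin+AMH over doxorubicin was 0.78 for Slit3 and 0.63 for Ntn4. Without the Clec3b-led cluster, stroma-like Unc5c was 1.01 over AMH and 1.18 over doxorubicin in doxorubicin+AMH, and Slit2 1.09 over doxorubicin. Macrophage-like Robo2 was 8.67, 10.8, 35.9 and 58.6 CPM, from 159 UMIs in all. Its AMH ratios were 6.76 over control and 3.32 over doxorubicin, and 2.21 and 1.08 with doublets left in. Of all genes tested there, 4.65% and 8.28% were at least 1.5-fold higher (5.72% and 12.8% lower). Robo2 was 176 CPM in the macrophage-like cluster with a median of 1554 UMIs and 11.8 CPM in that of 9731. Its ratio of doxorubicin+AMH over AMH was 0.612 in the main run and became 1.68 with cells weighted equally, 1.51 with a minimum of 500 UMIs and 1.29 with the same mix. For macrophage-like Slit3, from 124 UMIs in all, that ratio was 0.374 and became 1.91 with cells weighted equally and 1.18 with the same mix. With cells weighted equally, Slit3 of AMH over control went from 2.78 to 0.97 and of doxorubicin+AMH over doxorubicin from 0.455 to 1.09.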

Other observations

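Surface epithelial-like cells, which cover the ovary, came in 2 clusters that differed in Slit3. The cluster led by C3 and Slpi held 521, 640 and 373 CPM of Slit3 in the control, the doxorubicin and the AMH library (1 cell only in doxorubicin+AMH), and the cluster led by Lgals7 and Upk3b held 9.80, 2.06, 13.5 and 19.3 CPM in the 4 libraries. Slit2 was high in both, at 241 to 428 CPM and 284 to 364 CPM. Class-level Slit3 values of 143, 235, 29.3 and 201 CPM therefore come with different cluster mixes.

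Among clusters without a name, the doxorubicin cells with genes of several classes held 220 CPM of Robo2, 142 of Slit3 and 128 of Ntn4, and a cycling cluster led by Top2a, Enpep and Hmmr held 249 CPM of Robo2 and 240 of Slit3.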
